A study of Mus musculus with 12 samples.

Results

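The expression of 10 genes of smooth muscle and of the alveolar myofibroblast was measured in the lungs of miR-30a-/- mice. They are the contractile genes Acta2, Tagln, Myh11, Cnn1, Des and Actg2, the platelet-derived growth factor (PDGF) genes Pdgfa, Pdgfra and Pdgfrb, and the matrix gene Tgfbi. They were found by gene symbol and are 10 of the 55487 genes counted. All 10 were among the 45828 genes that passed the filter on low counts.

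The 12 libraries came from whole lungs of C57BL/6J mice in which the entire miR-30a gene had been removed by CRISPR/Cas9, so every group, room air included, lacked miR-30a. Neonatal males and females were kept in room air or exposed to hyperoxia (95% FiO2) on postnatal days 1 to 5, and lungs were taken on postnatal day 21. There were 3 lungs in each of the 4 groups. Pups of several litters had been mixed before exposure, so litter cannot be followed here. Wild-type lungs were not analysed here. Nothing that was measured can tell fewer cells of a type from less RNA per cell, since each library is a whole lung.

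Smooth muscle of the airways and vessels contracts through actin and myosin filaments and their regulators, and Acta2, Tagln, Myh11 and Cnn1 are its usual markers. While alveoli form, cells that carry the receptor PDGFRα respond to PDGF-A from the epithelium, switch on Acta2 and lay down elastin at the tips of new septa; these are the alveolar myofibroblasts. Most of them are lost once septation is over, while fibroblasts that carry PDGFRα remain in the adult lung. PDGFRβ marks pericytes and vascular smooth muscle.

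Total counts ranged from 8763033 to 16741694 per lung. The hairpin of Mir30a had 0 counts in all 12 lungs, which allows up to 3 counts in a library; total-RNA libraries catch such short transcripts poorly. The labelled sexes were checked by Xist (8834 counts or more in each female, 210 or fewer in each male) and by Ddx3y (0 counts in each female, 270 or more in each male). The lung markers Sftpc, Ager, Scgb1a1 and Pecam1 were found in every lung, at 230 CPM or more, where CPM are counts per 1000000 of the library's effective total. One library stood apart. In the first room-air male lung (number 1 in the labels), the 15 skeletal muscle genes summed to 2715 CPM, against 209 to 313 CPM in the other 11 lungs. Values without this lung are given beside the results that it touches most.

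Smooth muscle genes are switched on by serum response factor (SRF) at the CArG box. For Acta2, distances are counted from 1 RefSeq start, and the GENCODE M21 gene begins farther upstream, at base 34255590. A stretch of the Acta2 promoter, 94 to 15 bases before that RefSeq start, is shown because it holds a pair of CArG-like windows, in capitals, each with 1 departure from the full motif. It is given 5′ to 3′ on the minus strand, from RefSeq on GRCm38.p6 (chr19:34255388-34255467).
Acta2: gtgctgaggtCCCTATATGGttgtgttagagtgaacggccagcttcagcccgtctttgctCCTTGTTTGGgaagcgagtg
Of 32851 promoter windows of 300 bases, 1.63% held a full CArG box and 21.1% a CArG box with at most 1 departure, on either strand. At least 2 such windows stood in 3.70% of them. The windows matched to Cnn1, Des, Pdgfa, Pdgfra and Tgfbi held none.

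The mature sequence of the miRNA that these mice lack is shown with its seed, bases 2 to 8, in capitals. It is followed by the places in the 3′ UTRs of these genes where the letters TGTTTAC, the complement of the seed, occur, with 10 bases on each side.
miR-30a-5p: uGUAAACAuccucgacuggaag
Myh11: ccagcaacttTGTTTACatgaaatgag
Pdgfra: tggagcagtcTGTTTACcactcatttg
The letters stood at base 233 of 517 in the 3′ UTR of Myh11 and at base 2185 of 3115 in that of Pdgfra, in the GENCODE M21 transcripts. Thus 2 of the 10 genes held them, against 13.7% of 20975 genes with a 3′ UTR. The miR-30c-5p and miR-30e-5p sequences have the same seed and come from other genes. With no lung that has miR-30a among these libraries, nothing here tests whether the matches matter.

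Levels were compared between genes as CPM per kilobase of merged exon. Pdgfrb was the most abundant of the 10 at 34.8 ± 8.04 CPM per kb (SD, n = 12), above Pdgfra at 25.1 ± 6.69 in all 12 lungs. Pdgfra and Acta2 (23.8 ± 6.56) were not ordered, since Pdgfra was the higher in 7 of 12 lungs. Acta2 exceeded Pdgfa, at 12.8 ± 2.62 CPM per kb, in all 12 lungs. Pdgfa, Des (12.5 ± 6.03), Tgfbi (10.1 ± 1.39) and Myh11 (9.77 ± 1.33) came next; neighbours in this order kept it in 9, 8 and 8 of 12 lungs. Actg2 (7.37 ± 1.15) and Cnn1 (6.51 ± 1.03) followed; Myh11 exceeded Actg2 in 11 lungs and Actg2 exceeded Cnn1 in 9. Tagln was lowest at 2.06 ± 0.356 CPM per kb, below Cnn1 in all 12 lungs. Olfactory and vomeronasal receptor genes, which the lung hardly uses, averaged 0.812 to 1.69 CPM per kb over the 12 lungs, so Tagln stood little above this level.

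**Figure D1:**
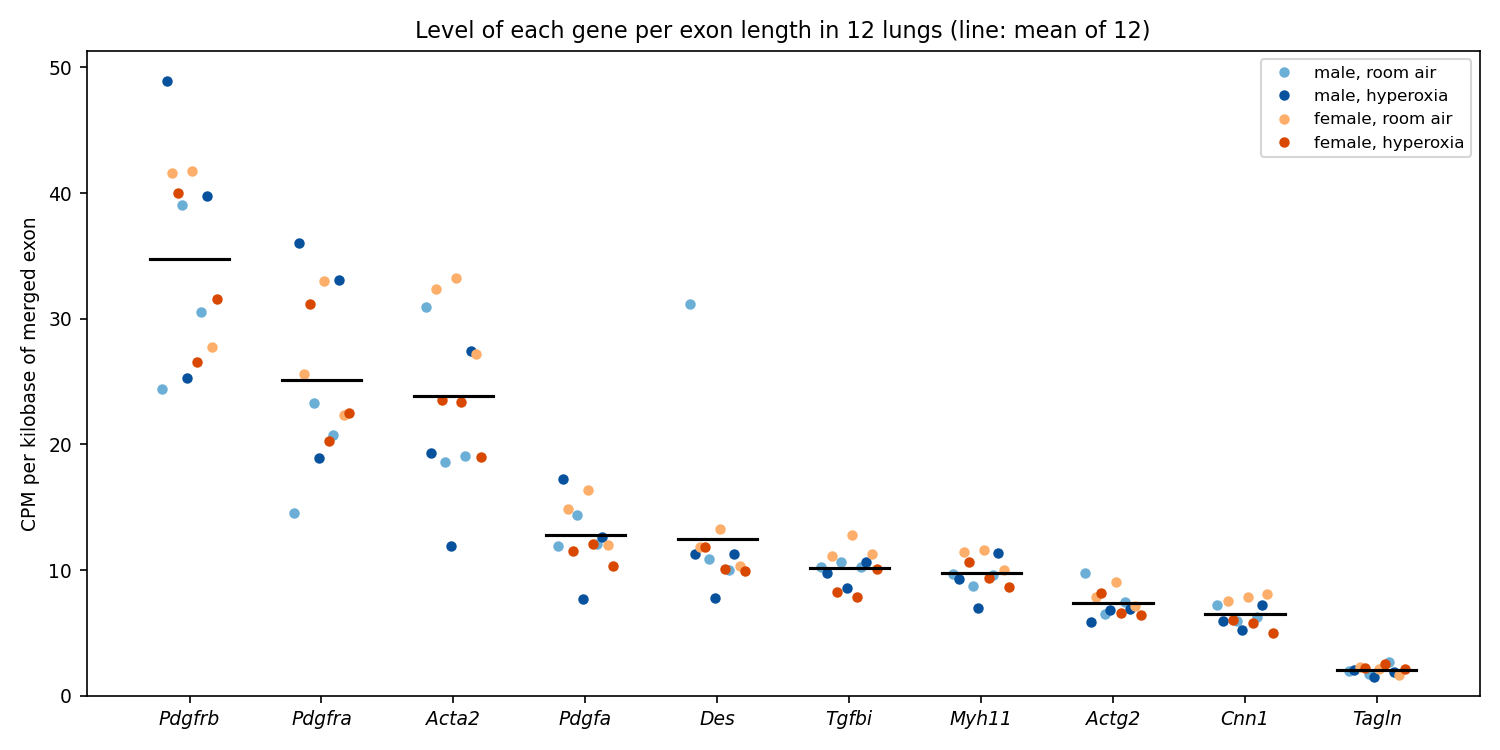
Level of each gene in the 12 lungs, as CPM per kilobase of merged exon (vertical axis), with genes ordered by their mean (black line) and lungs coloured by group. Pdgfrb is highest at 34.8 and Tagln lowest at 2.06 CPM per kb, and the clouds of Pdgfra and Acta2 overlap.

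Tagln is otherwise known as an abundant smooth muscle transcript, and its counts here were 27 to 68 per lung. Of its exon bases, 62.4% are shared with Gm48529, annotated on the opposite strand, which had 64 to 139 counts per lung. For Pdgfa, 26.1% of exon bases are shared with 6330403L08Rik, also on the opposite strand. Reads on shared bases may have been left out or split, since the strand setting of the counting is not given in the sources used here. The proteins of Acta2, Actg2, Acta1 and Actc1 are near-identical and their genes are close paralogs, so their values are uncertain to the extent that reads were split among them, which was not tested.

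Hyperoxia was first compared with room air over both sexes, as the mean of the effects in females and in males (6 lungs against 6). None of the 10 genes passed the test (an adjusted p under 0.05 in edgeR's quasi-likelihood test and a change over 1.5-fold). Their adjusted p ran from 0.927 to 0.981. Among all genes tested 0.0415% passed, 1 higher and 18 lower after hyperoxia. This balance differed with RUVr, the removal of unwanted factors that the study used. With 1 such factor 53 genes were called higher and 39 lower, none of them among the 10. Tgfbi and Cnn1 then had an adjusted p of 0.00704 and 0.0392, both lower and under 1.5-fold. With 2 factors Tgfbi, Cnn1, Pdgfa and Des had one of 0.00455, 0.0278, 0.0472 and 9.53e-04. These too were lower and under 1.5-fold, with the first room-air male lung in the fit. DESeq2 called none of the 10 either. At an unadjusted p under 0.05 stood 3 of the 10, Acta2, Cnn1 and Tgfbi, all with a lower estimate; 2382 genes, or 5.20% of those tested, met that mark. The estimate was lower after hyperoxia for 8 of the 10 and higher for Pdgfra and Pdgfrb. The median log2 fold change of the 10 was -0.21, against 0.03 over all genes tested and -0.06 over the 14605 genes with a mean of at least 10 CPM, of which 65.8% had a lower estimate. Without the first room-air male lung the median of the 10 was -0.12, against 0.05 and -0.08 in the same order.

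**Figure D2:**
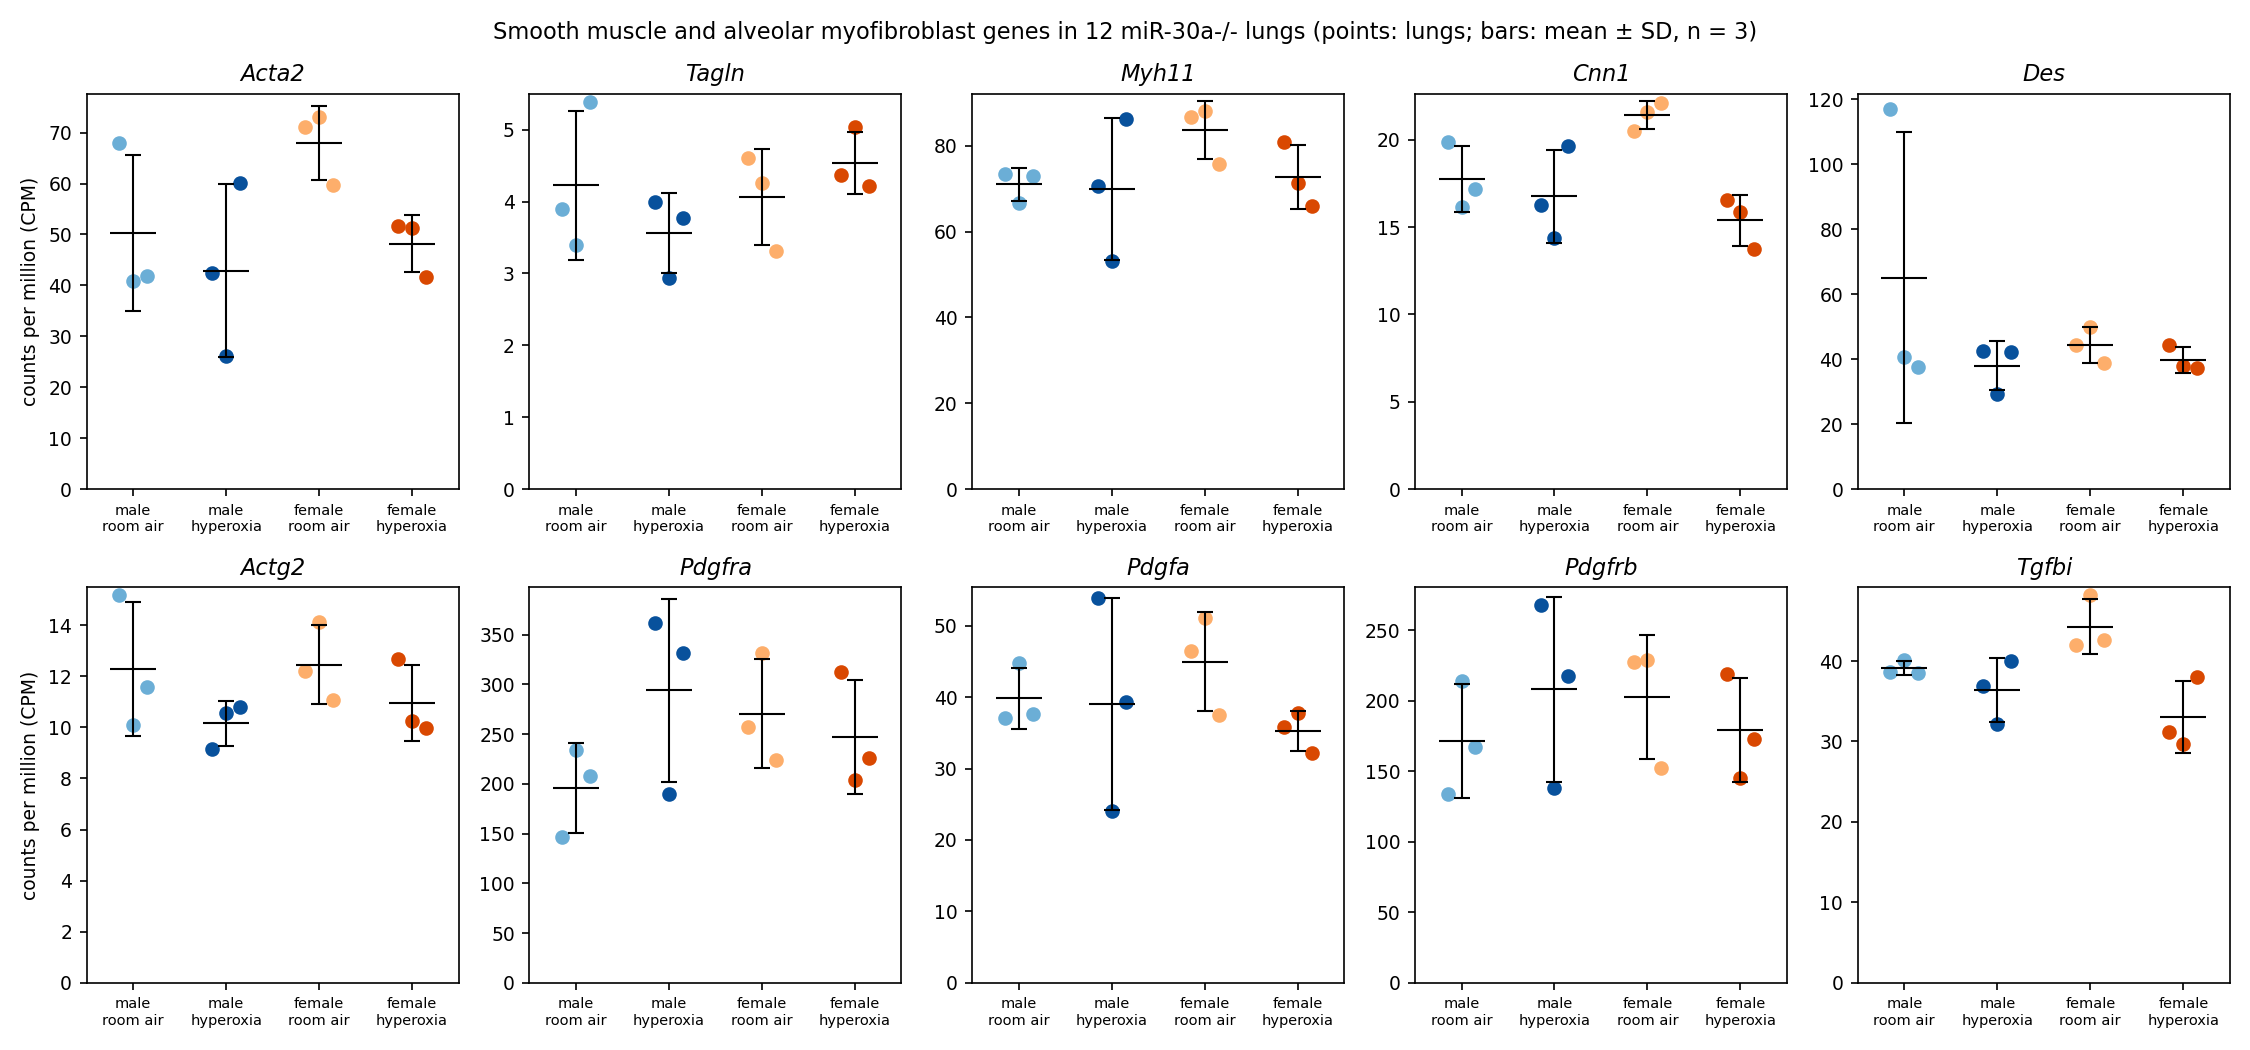
CPM of the 10 genes (vertical axes, from 0) in each of the 12 lungs by group, with the mean ± SD of 3 lungs. Hyperoxia and room-air lungs are apart in females for Acta2, Cnn1 and Tgfbi, and a single room-air male lung stands at 117 CPM for Des.

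Acta2 encodes α-smooth muscle actin, the actin of the contractile filament. In room air it was at 68.0, 40.9 and 41.9 CPM in the male lungs and at 71.1, 73.1 and 59.6 CPM in the female lungs. After hyperoxia it was at 42.4, 26.1 and 60.2 CPM in males and at 51.7, 51.3 and 41.7 CPM in females. The 3 hyperoxia-exposed female lungs were all below the 3 room-air female lungs, while the male groups overlapped. The log2 fold change was -0.50 ± 0.23 (SE) in females (adjusted p = 0.385, edgeR), -0.22 ± 0.23 in males (adjusted p = 1.00) and -0.36 ± 0.16 over both sexes (adjusted p = 0.927). Without the first room-air male lung, the estimate in males was 0.06 ± 0.24 and that over both sexes -0.22 ± 0.16.

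Cnn1 encodes calponin 1, which binds actin and damps the myosin ATPase of smooth muscle. Its CPM in female lungs were 20.5, 21.6 and 22.1 in room air and 16.5, 15.9 and 13.7 after hyperoxia. In male lungs they were 19.8, 16.2 and 17.2 in room air and 16.2, 14.4 and 19.6 after hyperoxia. Females were again apart and males mixed. The log2 fold change was -0.48 ± 0.15 in females (adjusted p = 0.336), -0.08 ± 0.15 in males (adjusted p = 1.00) and -0.28 ± 0.10 over both sexes (adjusted p = 0.927). The male estimate was 0.02 ± 0.17 without the first room-air male lung.

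Myh11 encodes the smooth muscle myosin heavy chain, a specific marker of that muscle. It ranged from 53.1 CPM, in a hyperoxia-exposed male lung, to 88.1 CPM, in a room-air female lung. The log2 fold change was -0.20 ± 0.19 in females and -0.02 ± 0.19 in males (0.01 ± 0.23 without the first room-air male lung), and the groups overlapped in both sexes. Actg2 encodes the γ actin of enteric and other visceral muscle. It lay between 9.16 and 15.2 CPM, with its highest value in the first room-air male lung and overlapping groups in both sexes. Its log2 fold change was -0.19 ± 0.17 in females and -0.28 ± 0.18 in males. With single lungs left out, the female estimate ran from -0.31 (without exposed female 2) to -0.08 (without room-air female 5). The male estimate was -0.09 ± 0.19 without the first room-air male lung, and that over both sexes was -0.14 ± 0.13, against -0.23 ± 0.12 with it. Tagln, whose product transgelin cross-links actin, had a log2 fold change of 0.15 ± 0.25 in females and -0.23 ± 0.25 in males, within its counting limits.

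Des encodes desmin, the intermediate filament of smooth, skeletal and cardiac muscle, so it is not specific to smooth muscle. In room-air males it was at 117, 40.8 and 37.7 CPM, and in hyperoxia-exposed males at 42.5, 29.3 and 42.2 CPM. Female lungs held 44.3, 49.9 and 38.8 CPM in room air and 44.5, 37.8 and 37.3 CPM after hyperoxia. A single lung, the first room-air male, was far above the other 11, which ran from 29.3 to 49.9 CPM. The log2 fold change in males was -0.77 ± 0.33 with that lung (adjusted p = 1.00) and -0.04 ± 0.20 without it; over both sexes it was -0.46 ± 0.23 with it (adjusted p = 0.927) and -0.10 ± 0.13 without it.

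That same lung had 729 CPM of Acta1, the actin of skeletal muscle, against 4.77 to 7.48 CPM in the others. It also had 632 CPM of Neb, the giant filament protein nebulin, against 55.7 to 104 CPM elsewhere. Actc1, cardiac actin, was at 115 CPM there and at 15.3 to 55.6 CPM in the others. In this lung Acta2 was the highest of the 3 room-air male lungs at 68.0 CPM, as was Actg2 at 15.2 CPM. Ckm, the muscle creatine kinase, was at 132 CPM there and at 4.06 to 10.8 CPM in the others. Acta1 and Ckm had the smallest p of the skeletal muscle list over both sexes; their log2 fold changes were -5.49 ± 1.79 and -2.79 ± 1.08 in males, and 0.32 ± 1.74 and -0.20 ± 1.10 in females, whose comparison does not hold this lung. Over the list of 15 skeletal muscle genes, 12 had a lower estimate after hyperoxia over both sexes (median -0.65) and 0 passed the test; without this lung 3 were lower (median 0.09) and 0 passed. In females 4 of the 15 were lower, and in males 14 with this lung and 10 without it. No gene of the list was at 0. The part of skeletal muscle RNA in the values of Acta2 and Actg2 in that lung was not tested.

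**Figure D3:**
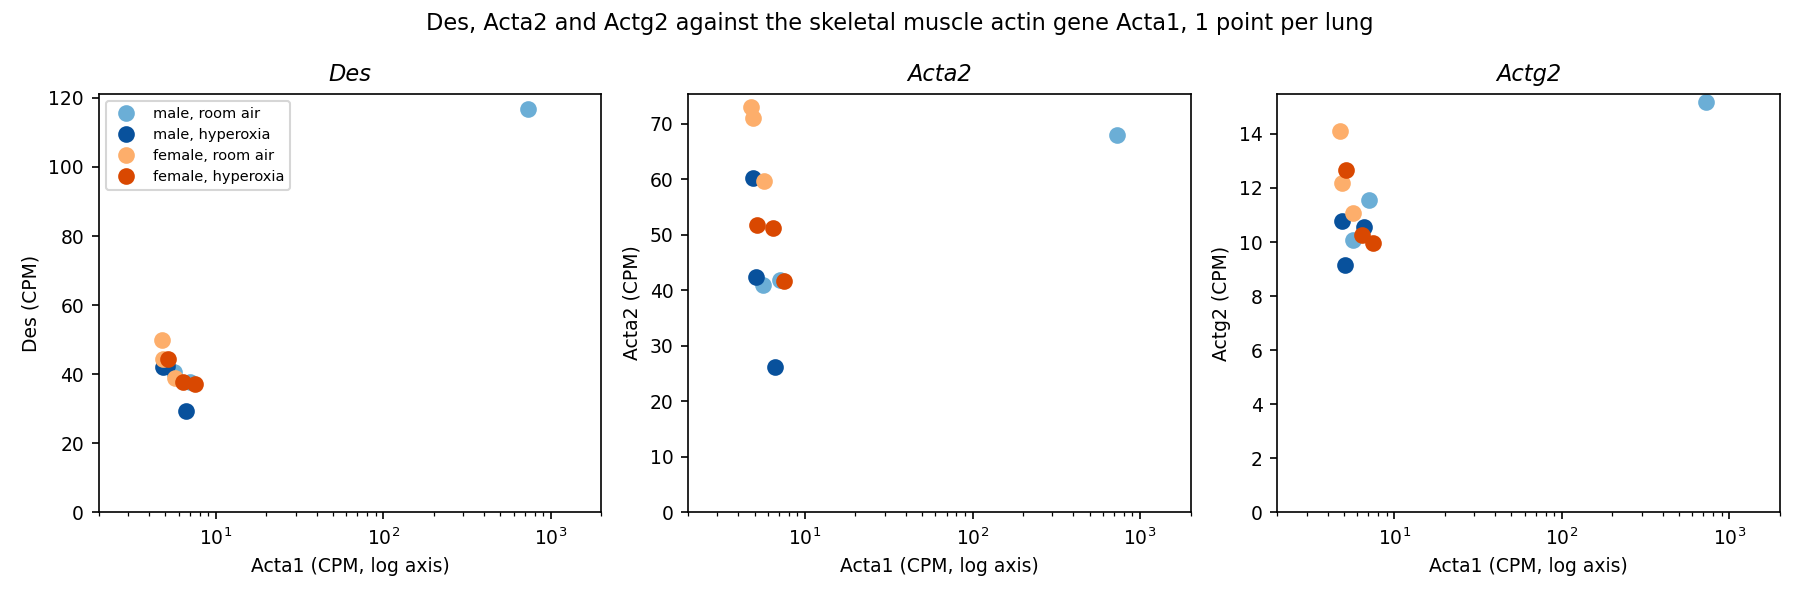
CPM of Des, Acta2 and Actg2 (vertical axes) against that of the skeletal muscle actin gene Acta1 (horizontal log axis), with 1 point per lung. The first room-air male lung lies alone at 729 CPM of Acta1 and 117 CPM of Des; the other 11 lie at 4.77 to 7.48 CPM of Acta1.

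Genes of heart muscle, which in mice also sheathes the pulmonary veins, were read beside the contractile genes. The 13 of the cardiac list summed to 375 to 419 CPM in room-air females and 268 to 292 CPM in hyperoxia-exposed females. In males the sum was 485, 260 and 321 CPM in room air, the first in the lung with skeletal muscle RNA, and 246 to 293 CPM after hyperoxia. The sums were apart in females and overlapped in males. The summed levels of epithelial genes (room air from 11115 CPM, hyperoxia to 10964 CPM) and of smooth muscle regulators (from 881 CPM, to 858 CPM) were apart in females too. Of the 13, 9 had a lower estimate over both sexes, 0 passed the test, and none was at 0. Closest to passing were Myh6, the atrial myosin heavy chain (-0.71 ± 0.14, adjusted p = 0.0555), and Myl7, the atrial light chain (-0.98 ± 0.20, adjusted p = 0.0644). When the first room-air male lung was left out, 10 of the 13 were lower and Actc1 passed (-0.80 ± 0.12, adjusted p = 0.00401). Their part in the values of Des and Acta2 was not tested.

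Among the PDGF genes, Pdgfra, the receptor of alveolar myofibroblast precursors, had the widest spread between lungs, with a coefficient of variation of 26.6%. In room air it was at 146, 234 and 208 CPM in males and at 257, 331 and 224 CPM in females. After hyperoxia it was at 361, 189 and 331 CPM in males and at 312, 203 and 225 CPM in females. Groups overlapped in both sexes. The log2 fold change was 0.59 ± 0.28 in males (adjusted p = 1.00), -0.13 ± 0.28 in females (adjusted p = 0.830) and 0.23 ± 0.20 over both sexes (adjusted p = 0.927). The difference between the sexes in this effect was -0.72 ± 0.39 (females minus males, adjusted p = 0.578). Without the first room-air male lung, which had the lowest Pdgfra of the 12, the estimate was 0.42 ± 0.32 in males and 0.14 ± 0.21 over both sexes.

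Pdgfrb had a similar layout, from 134 to 268 CPM, with log2 fold changes of 0.28 ± 0.27 in males (0.13 ± 0.30 without the first room-air male lung) and -0.18 ± 0.27 in females. With single lungs left out, the male estimate ran from 0.06 to 0.51 (without exposed males 1 and 2) and the female one from -0.36 (without room-air female 6) to -0.05 (without exposed female 4). Over both sexes it was 0.05 ± 0.19, and -0.03 ± 0.20 without the first room-air male lung. Pdgfa, the ligand, was at 46.5, 51.1 and 37.4 CPM in room-air females and at 35.9, 37.8 and 32.2 CPM in hyperoxia-exposed females, where only the third room-air lung reached into the range of the exposed ones. Its log2 fold change was -0.35 ± 0.20 in females (adjusted p = 0.432) and -0.02 ± 0.20 in males (-0.07 ± 0.23 without the first room-air male lung). Hyperoxia-exposed males held its extremes, 53.8 and 24.1 CPM, in the same 2 lungs that held the highest and lowest Pdgfrb of that group.

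Tgfbi encodes a matrix protein induced by TGF-β that binds collagens and integrins. Female lungs held 42.0, 48.2 and 42.7 CPM in room air and 31.2, 29.7 and 38.1 CPM after hyperoxia, with no overlap. Male lungs held 38.7, 40.1 and 38.5 CPM in room air and 36.9, 32.2 and 40.0 CPM after hyperoxia, with overlap. The log2 fold change was -0.42 ± 0.15 in females (adjusted p = 0.352), -0.10 ± 0.15 in males (adjusted p = 1.00) and -0.26 ± 0.11 over both sexes (adjusted p = 0.927).

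**Figure D4:**
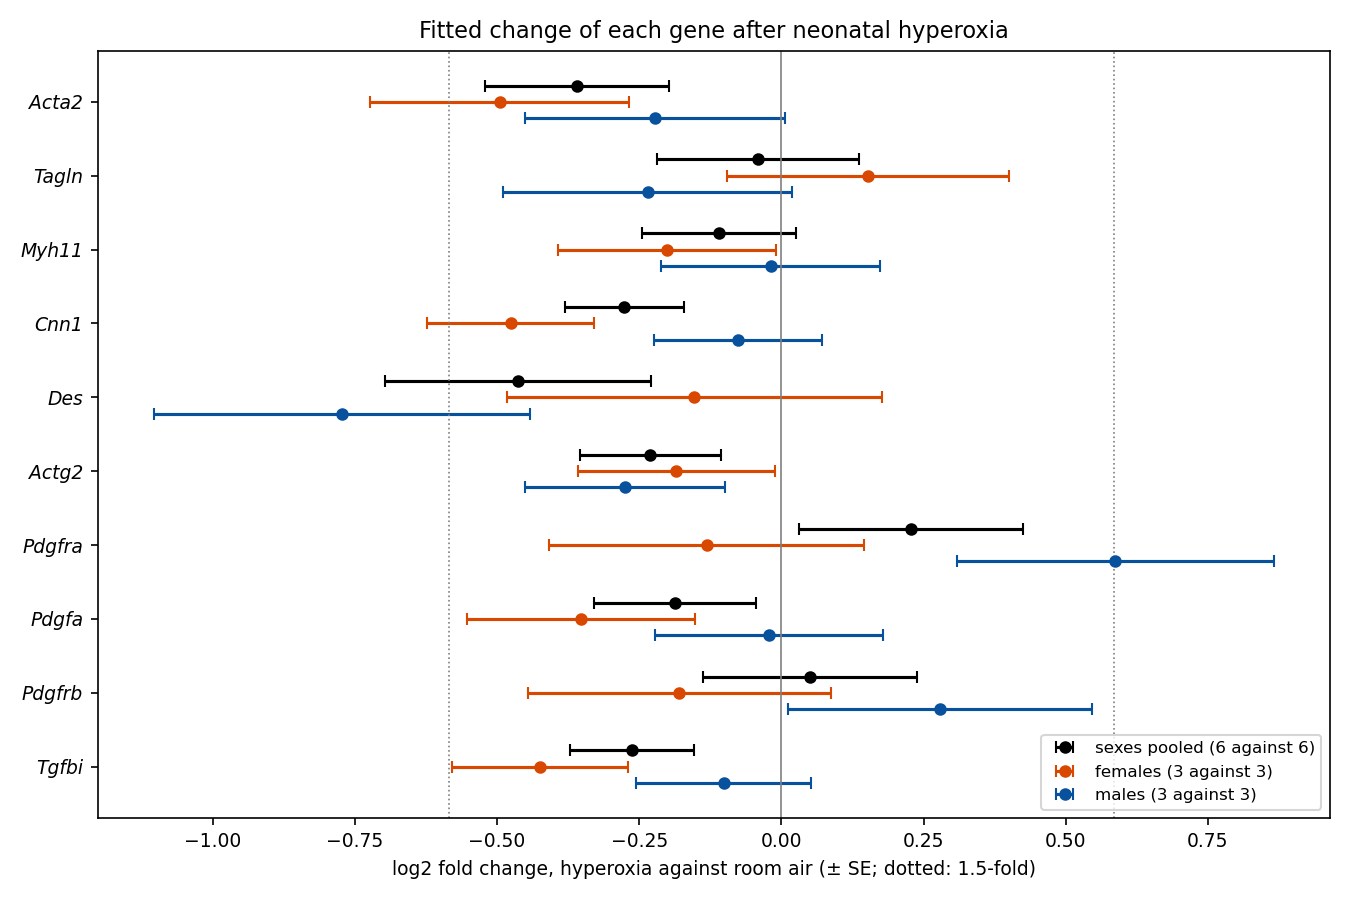
Log2 fold change of hyperoxia against room air for each gene (horizontal axis, ± SE) over both sexes, in females and in males, with dotted lines at 1.5-fold. In females 9 of 10 estimates lie below 0, and in males Des (-0.77) and Pdgfra (0.59) lie farthest from 0; no gene passed the test in any of the 3 comparisons.

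In females, then, 0 of the 10 genes passed the test by edgeR or DESeq2 (edgeR's adjusted p 0.336 to 0.836). Of all genes 0.00218% did in edgeR, which was 1 gene, Gda, which was lower. With 1 RUVr factor 1537 genes were called higher and 363 lower, none of them among the 10. Cnn1, Pdgfa and Tgfbi had an adjusted p under 0.05 with 1 and with 2 factors, all lower and under 1.5-fold. An unadjusted p under 0.05 in edgeR was seen for 3 of the 10, all lower, and for 5775 of the 45828 genes tested (3354 higher and 2421 lower). Non-overlapping groups with hyperoxia lower were seen for 3 of the 10 (Acta2, Cnn1 and Tgfbi) and for 6.42% of all genes. That share was not counted among the genes of at least 10 CPM, a larger part of which were lower, so it is not a matched background. The median of the 10 was -0.19, against 0.11 over all genes and -0.17 over the genes of at least 10 CPM, of which 71.2% had a lower estimate. The 9 of 10 that were lower are thus to be read against a table in which most well expressed genes were lower in females.

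In males none of the 10 passed by edgeR or DESeq2 (edgeR's adjusted p 1.00 for all), and 0% of all genes did. With 2 RUVr factors Des passed (-0.61, adjusted p = 0.00174), and Pdgfra stayed just under 1.5-fold (0.58, adjusted p = 0.00524). That fit held the first room-air male lung, and RUVr was not run without it. With no factors, the male estimate of Des was -0.04 without that lung. An unadjusted p under 0.05 in edgeR was seen for 2 of the 10, Des and Pdgfra, and for 1237 of the 45828 genes tested (412 higher and 825 lower). Without the first room-air male lung 0 of the 10 had one. Hyperoxia lungs all below room-air lungs were seen for 0 of the 10 and for 3.89% of all genes. Over both sexes the same pattern, 6 lungs below 6, was seen for 0 of the 10 and 0.120% of all genes. The male median of the 10 was -0.09, against -0.01 over all genes and 0.03 over the genes of at least 10 CPM, of which 40.1% had a lower estimate, as did 8 of the 10. Without the first room-air male lung the median of the 10 was -0.01 and 5 were lower, against 0.01 and 48.3% for the genes of at least 10 CPM.

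Whether hyperoxia acted differently in females and males was tested by the interaction. None of the 10 passed in edgeR (adjusted p 0.578 to 0.892) or in DESeq2, and 0% of all genes did. At an unadjusted p under 0.05 in edgeR stood 0 of the 10 and 3875 of the 45828 genes tested. Without the first room-air male lung it was 2101 of 46682 genes. With RUVr factors, as the study's methods use, Pdgfra passed for the interaction (-0.70, adjusted p = 0.0136 with 1 factor, and -0.71, adjusted p = 0.00143 with 2). Pdgfrb stayed under 1.5-fold (-0.43 with either, adjusted p = 0.00765 with 1 and 0.00713 with 2). So did Des with 2 factors (0.48, adjusted p = 0.0250). With the share of receptor-gene counts as a covariate, described below, no gene passed for the interaction. The estimates of Pdgfra in males and females lay closer together in that fit. With neither factors nor covariate, the largest differences were those of Pdgfra (-0.72 ± 0.39) and Des (0.62 ± 0.47). Without the first room-air male lung that of Des was -0.12 ± 0.26. So the separation of Acta2, Cnn1 and Tgfbi in females is not shown to differ from that in males. Between females and males over both exposures, 0 of the 10 passed (adjusted p 0.825 to 0.997, DESeq2 none), against 1.22% of all genes. The estimate was higher in females for 9 of the 10, with Acta2 highest at 0.30 ± 0.16 (0.44 ± 0.16 without the first room-air male lung) and only Des lower, at -0.24 ± 0.23; without the first room-air male lung Des was at 0.12 ± 0.13.

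Lungs differed in the share of counts on olfactory and vomeronasal receptor genes, which ran from 0.453% to 1.04%. It was 0.453% to 0.819% in room-air females and 0.738% to 0.936% in exposed females and overlapped between them. In males it was 0.996%, 0.709% and 0.851% in room air and 0.569%, 1.04% and 0.798% after hyperoxia. The PDGF genes were lower where it was higher, as were many other genes. For Pdgfa the correlation of log2 CPM with log2 share was r = -0.85 (permutation p = 2.50e-04, adjusted over the 10 genes 0.00250; rho = -0.85, permutation p = 9.10e-04, adjusted 0.00303). For Pdgfrb it was r = -0.83 (permutation p = 6.10e-04, adjusted 0.00305; rho = -0.92, permutation p = 1.40e-04, adjusted 0.00140). For Pdgfra it was r = -0.75 (permutation p = 0.00500, adjusted 0.0167; rho = -0.85, permutation p = 8.80e-04, adjusted 0.00303). Of the 14605 genes with a mean of at least 10 CPM, 30.7% had an r as low as that of Pdgfa or lower, 35.0% as that of Pdgfrb and 44.0% as that of Pdgfra, so the relation is not particular to them.

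These relations were present within each exposure. Within the 6 room-air and the 6 hyperoxia-exposed lungs, r was -0.94 and -0.87 for Pdgfra, -0.96 and -0.93 for Pdgfa, and -0.90 and -0.90 for Pdgfrb. Without the 2 lungs farthest from the median share, r over the other 10 was -0.61, -0.79 and -0.83 in the same order. For the other 7 genes the correlation did not pass after adjustment; Myh11 came closest (r = -0.62, permutation p = 0.0293, adjusted 0.0733; rho = -0.55, adjusted 0.140). With the share as a covariate, the log2 fold change of Pdgfra was 0.40 ± 0.08 over both sexes (adjusted p = 0.0237, under the 1.5-fold mark), 0.46 ± 0.11 in males and 0.33 ± 0.13 in females. In the same fit the estimates in females turned to 0.32 for Pdgfrb and 0.07 for Pdgfa, and that of Acta2 was -0.39. The part of what sets this share in the levels of the PDGF genes was not tested.

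**Figure D5:**
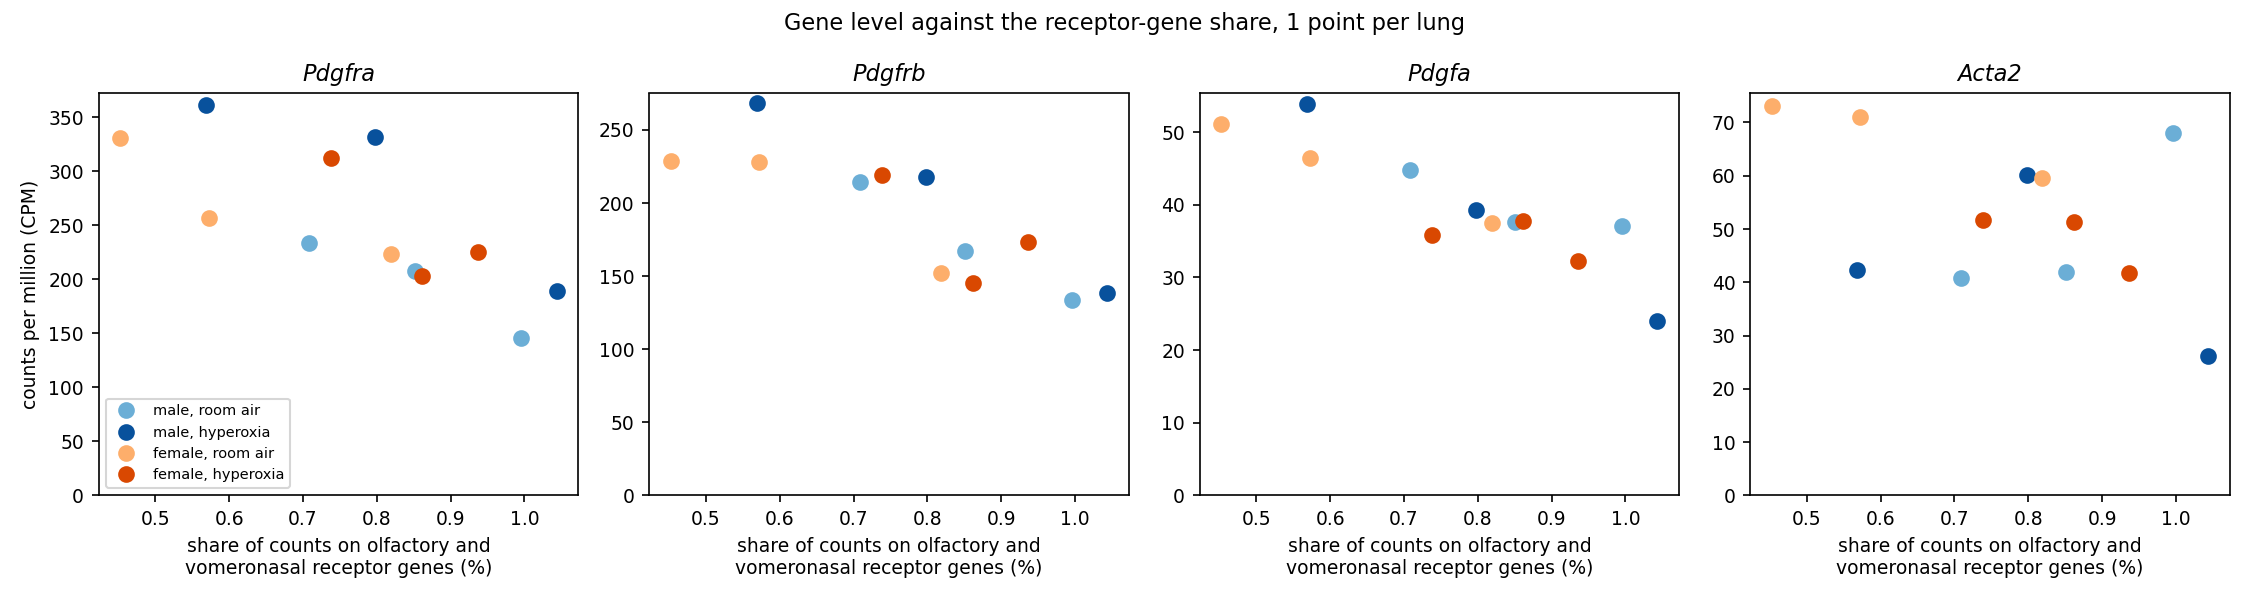
CPM of Pdgfra, Pdgfrb, Pdgfa and Acta2 (vertical axes, from 0) against the percent of counts on olfactory and vomeronasal receptor genes (horizontal axes), with 1 point per lung. The PDGF genes fall as the share rises from 0.453% to 1.04% (r = -0.75, -0.83 and -0.85), and Acta2 follows it less closely (r = -0.47).

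The genes whose pattern over the 12 lungs was most like that of Acta2 and Pdgfra were sought among 14604 other genes with a mean of at least 10 CPM, as a description. For Acta2 they included Myh11 (r = 0.90), Rbm17 (0.86), Olfml2b (0.86) and Prelid3b (0.86). For Pdgfra they were Fmo2 (r = 0.99), a flavin monooxygenase of the lung, Lox (0.98), which cross-links collagen and elastin, Adgrl4 (0.98), an endothelial adhesion receptor, Ehd3 (0.97) and Serinc3 (0.96). All these points share library and depth.

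Other genes of the same cells and pathways were read from lists. Of 25 further contractile genes of smooth muscle, 24 had a lower estimate after hyperoxia over both sexes (median -0.21) and 0 passed the test; 5 had an unadjusted p under 0.05, all lower. The 2 with the smallest p were Pcp4l1 (-0.35 ± 0.12) and Myl9, the regulatory light chain of smooth muscle myosin (-0.38 ± 0.14). In females 24 of 25 were lower (median -0.35) and in males 17 of 25 (median -0.05), with 0 passing in either. Leaving out the first room-air male lung, 21 were lower over both sexes (median -0.15), 2 with an unadjusted p under 0.05, and 15 in males (median -0.01). Of 12 regulators of the smooth muscle program 8 were lower and 0 passed. The lowest p values were those of Klf4, a factor that represses contractile genes (-0.65 ± 0.19 over both sexes, adjusted p = 0.675; -1.05 ± 0.27 in females and -0.25 in males), and Srf itself (-0.24 ± 0.12; -0.51 ± 0.17 in females and 0.03 in males). Of the 12, 10 were lower in females (median -0.21) and 3 in males (median 0.05). With the first room-air male lung left out, 10 were lower over both sexes and 4 in males (median 0.02).

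Of 9 further alveolar myofibroblast genes, 5 were lower and 4 higher (median -0.10), and 0 passed; 7 were lower in females and 4 in males. Igfbp5, an IGF-binding protein, stood at -0.43 ± 0.22 and Hhip, a hedgehog antagonist, at -0.27 ± 0.16. Of 9 further genes of PDGF signalling, 7 were lower (median -0.16), 7 in females and 3 in males (5 without the first room-air male lung), and 0 passed; the ligand Pdgfd stood at -0.32 ± 0.11 and the phosphatase Ptpn11 at -0.22 ± 0.15. Of 18 genes of the TGF-β pathway and its targets, 16 were lower (median -0.21) and 0 passed. The list mixes induced genes with the ligands Tgfb1, Tgfb2 and Tgfb3 and the receptors Tgfbr1 and Tgfbr2, so it is not a readout of targets alone. All 18 were lower in females (median -0.43) and 10 in males (median -0.02). Leaving out the first room-air male lung, 18 were lower over both sexes (median -0.24) and 12 in males (median -0.10). Tnc, the matrix protein tenascin C, stood at -0.44 ± 0.13 and Col1a1, of collagen I, at -0.53 ± 0.21.

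Neighbouring cell types were read the same way over both sexes. Of 14 pericyte genes 9 were lower (median -0.05; Abcc9 -0.15 ± 0.11, Postn -0.26 ± 0.20). Of 12 alveolar lipofibroblast genes 7 were lower (median -0.01; Scn7a -0.46 ± 0.23, Gyg -0.30 ± 0.18). Of 9 adventitial fibroblast genes all 9 were lower (median -0.33; Clec3b -0.44 ± 0.12, Dpt -0.40 ± 0.15). Endothelial genes were lower in 10 of 12 (median -0.11; Cldn5 -0.36 ± 0.16, Kdr -0.37 ± 0.20) and epithelial genes in 12 of 12 (median -0.22; Aqp5 -0.42 ± 0.17, Pdpn -0.27 ± 0.14). None of these passed. The medians without the first room-air male lung were -0.09 for pericytes, -0.06 for lipofibroblasts and -0.18 for endothelium. Of 14 monocyte and macrophage genes 11 were lower and 1 passed, Plac8 (-0.95 ± 0.15, adjusted p = 0.00689). In females 12 of 12 epithelial and 12 of 12 endothelial genes were lower, with medians of -0.54 and -0.37. So were 12 of 14 pericyte and 12 of 12 lipofibroblast genes (medians -0.19 and -0.17). Adventitial genes were lower in 9 of 9 (median -0.34) and monocyte and macrophage genes in 12 of 14 (median -0.22). In males 5 of 12 epithelial and 4 of 12 endothelial genes were lower, with medians of 0.07 and 0.07, and 4 of 14 pericyte and 3 of 12 lipofibroblast genes. Adventitial genes were lower in 8 of 9 males' estimates (median -0.27) and monocyte and macrophage genes in 8 of 14 (median -0.03). With the first room-air male lung left out, 8 of 12 epithelial and 7 of 12 endothelial genes were lower in males (medians -0.05 and -0.08), as were 4 of 14 pericyte and 5 of 12 lipofibroblast genes. Adventitial genes were then lower in 6 of 9 (median -0.10) and monocyte and macrophage genes in 9 of 14 (median -0.13).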

How the data were processed

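Raw read counts per gene were deposited by the authors in a single table of 12 libraries. Per the labels and the submitters' processing notes, RNA of flash-frozen lungs (Zymo Direct-zol) was made into NEBNext Ultra II Directional libraries after rRNA depletion, trimmed with Trim Galore, aligned with STAR to mm10 (GRCm38) and counted with featureCounts. The study's methods name another library kit. Versions and the strand setting are not given in the sources used here.

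Counts were fitted in edgeR 4.0.16 (R 4.3.3): genes were filtered with filterByExpr, scaled by the upper quartile and fitted by group with the robust quasi-likelihood method, and p values were Benjamini-Hochberg adjusted over all 45828 genes. A call needed an adjusted p under 0.05 and a change over 1.5-fold. The study removed unwanted factors (RUVr) but their number is not stated, so 1 and 2 factors were alternatives, as were TMM, DESeq2 1.42.0, no filter, the receptor share as a covariate, an additive model, each lung left out, and adjusted p alone. The gene lists without room-air male 1 were added after seeing the data. CPM are per effective library size. Depth was 8763033 to 16741694 counts; nothing says how the 3 lungs of a group relate beyond being separate mice, so p values measure their spread.

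The 10 genes and all lists were chosen with earlier results of these data known. Named in the text are the 10 genes, the genes of each list that were called or else the 2 with the smallest unadjusted p, the 5 genes most like Acta2 and Pdgfra (1 is not reported here), and checks; genes named beyond that were chosen after their values were seen. Correlations with the receptor share used 100000 permutations, two-sided. Exon lengths came from GENCODE M21, in which 55141 of the 55487 genes were found. Promoter windows were matched for 6 of the 10 genes. On simulated counts for the comparison over both sexes (45221 genes), the fit called 99 of 100 genes changed by 1 on the log2 scale and 100 of 100 changed by 2, with 13 unchanged genes called. The changed genes were drawn from above a minimum mean level, which Tagln was under. Counts were drawn separately for each gene, without differences shared by a whole library. Changes as small as the estimates of the 10 genes were not simulated, so how often those would be called is not known.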

Additional observations from a re-analysis of the deposited data

Results flagged for a closer look

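The 6 lungs of each exposure were checked for a value apart from the rest in 20 sets (10 genes by 2 exposures), of which 1 was flagged; chance flags about 1 in 20 sets. It was Des in room air, where the first male lung was at 116.9 CPM and the next highest room-air lung at 49.9 CPM. This is the lung with the high skeletal muscle genes. For no gene did every female lung move one way and every male lung the other, and in the fit without RUVr factors no interaction of sex and hyperoxia passed among the 10 genes; with them that of Pdgfra did.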

How the results depend on the processing

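Across 440 recomputed log2 fold changes of the 10 genes (over both sexes, in females and in males), 415 kept their direction and their side of the threshold, 24 changed sign and 1 passed the threshold only in the alternative. Of the 30 estimates, 20 never changed sign, among them those of Acta2, Cnn1, Myh11, Des, Actg2 and Tgfbi over both sexes and in females. The medians of the 10 genes moved by less than the spread between lungs in every alternative, but by over 1.5 times in some. The median over both sexes was -0.12 without room-air male 1. That in females was -0.35 and -0.31 without exposed female 2 and room-air female 6, -0.12 without room-air female 5, -0.29 by DESeq2 and -0.12 with the receptor covariate. That in males was -0.20, -0.15 and 0.03 without exposed males 3, 1 and 2, -0.01 without room-air male 1, and -0.14 with that covariate.

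With RUVr of 1 and 2 factors many more genes were called: 92 and 110 over both sexes, 1900 and 1933 in females, 14 and 66 in males, 2095 and 2194 for the interaction, and 1002 and 1040 between the sexes. Of the 10 genes these fits called Pdgfra for the interaction with 1 and 2 factors (-0.70 and -0.71). With 2 they called Des in males (-0.61, adjusted p = 0.00174), room-air male 1 included. In females Cnn1, Pdgfa and Tgfbi had an adjusted p of 0.00205, 0.00674 and 4.50e-04 with 1 factor. These were under 1.5-fold, as were the others under 0.05 given above. DESeq2 called 40 genes over both sexes and 89 in females; with its size factors Myh11 (0.0020) and Pdgfa (0.0093) were above 0 in males. TMM called 0 genes in females, with 5340 at an unadjusted p under 0.05, and no filter 8; without the filter 1004 were called between the sexes. The receptor share as a covariate gave 22 calls in females, 6 in males and 976 between the sexes; Tagln over both sexes turned to 0.014, and in females Pdgfra to 0.33, Pdgfa to 0.066 and Pdgfrb to 0.32. The cause of these differences was not tested.

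With the replicate block (6 female lungs, of which numbers 2 and 5 occur in both groups) 451 genes were called, none of the 10, and Tagln turned to -0.015. Lungs of the same number did not deviate together (r = 0.06 and -0.17), and they are different mice. Males share 1 number, so no such fit could be made for them.

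With 1 lung left out (lungs are named by the number in their labels), calls over both sexes ranged from 3 to 37. They were 6, 4 and 32 without room-air male 5, female 2 and female 6, and 37, 10 and 3 without exposed male 1, female 2 and female 5. In females calls ranged from 0 to 206. They were 0, 2 and 206 without room-air females 2, 5 and 6, and 3 and 0 without exposed females 2 and 5. None of the 10 genes was called in any of these. Without exposed male 2, the estimates over both sexes were -0.23 for Acta2, -0.026 for Myh11, 0.35 for Pdgfra and -0.061 for Pdgfa. That of Pdgfra was 0.12 without exposed female 2 and 0.14 without exposed male 1, that of Pdgfa was -0.34 without exposed male 1, and that of Myh11 was -0.20 without exposed male 3. Over both sexes Tagln ranged from -0.10 to 0.067 and Pdgfrb from -0.061 to 0.16. In females Pdgfra ranged from -0.34 to 0.040, above 0 only without room-air female 5, Des from -0.25 to -0.060, Myh11 from -0.29 to -0.13 and Tagln from 0.024 to 0.25. In males Tagln ranged from -0.36 to -0.019, Actg2 from -0.39 to -0.091, Des from -1.04 to -0.038 and Tgfbi from -0.17 to -0.014. Also in males Acta2 ranged from -0.54 to 0.061, Myh11 from -0.19 to 0.15, Cnn1 from -0.20 to 0.027 and Pdgfa from -0.32 to 0.23. Acta2, Myh11 and Cnn1 were above 0 in males without room-air male 1 or exposed male 2; Myh11 was also without room-air male 5. Pdgfa was so without room-air male 4 or exposed male 2. At 27 to 68 counts per lung, depth limits Tagln most.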
